A study of Mus musculus with 9 samples.

Results

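The mRNAs of 10 amino acid transporters were followed through an RNA immunoprecipitation of phosphorylated UPF1 (p-UPF1) from activated mouse B cells. They were Slc7a11, Slc3a2, Slc7a5, Slc7a6, Slc7a1, Slc1a5, Slc1a4, Slc38a1, Slc38a2 and Slc38a9, taken by their NCBI Gene identifiers from a count table of 27179 genes. All 10 passed the filter on low counts, as did 13129 genes in all. The cells were CD43- splenic B cells of wild-type mice, kept for 72 h with CD40L at 5 ug/mL, an anti-IgM antibody at 10 ug/mL and IL-4 at 20 ng/mL (the study's methods name an anti-CD40 antibody in place of CD40L). The 9 libraries, 3 in each group, held RNA of the whole lysate (input), RNA recovered with normal rabbit IgG, and RNA recovered with an antibody against p-UPF1. All groups came from stimulated wild-type cells, so no resting cells and no cells lacking UPF1 were compared. By the study's methods, part of the lysate was kept as input and the rest was incubated with either antibody. Libraries of different groups may thus share a lysate, which the main fit did not use. The labels do not say whether the 3 libraries of a group came from separate cultures or animals. The study's methods describe the data points of its graphs in general as biological replicates, without naming these libraries, and the P values measure the spread between them.

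UPF1 is an RNA helicase that senses how translation ends. When a ribosome stops in an unusual setting, UPF1 is phosphorylated and recruits decay factors, the route known as nonsense-mediated mRNA decay, and long 3' UTRs and splice junctions beyond the stop codon are known to favour it. Activated lymphocytes take up large amounts of amino acids to grow and divide. Slc3a2 encodes the heavy chain of CD98, which carries several light chains to the cell surface. Among those light chains, Slc7a5 encodes LAT1, which imports leucine and other large neutral amino acids, Slc7a6 encodes an exchanger of cationic for neutral amino acids, and Slc7a11 encodes xCT, which imports cystine in exchange for glutamate. The other members act without that heavy chain.

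The stop codon is the place on the mRNA at which UPF1 meets the terminating ribosome, so its surroundings are shown for the members between which the results below divide. Each line gives 15 coding bases, the stop codon in capitals and the first 12 bases of the 3' UTR, read 5' to 3' from RefSeq transcripts on GRCm38. Stop codons lay at chr11:20304266-20304268 on the minus strand for Slc1a4, chr8:106196636-106196638 on the plus strand for Slc7a6, chr8:121883040-121883042 on the minus strand for Slc7a5, chr7:16797737-16797739 on the plus strand for Slc1a5 and chr19:8707723-8707725 on the minus strand for Slc3a2.
Slc1a4: aaggagtcagtgctgTGAttgggctgggtc
Slc7a6: gagaggaaaactgacTAGaagccagagatg
Slc7a5: gtacctcaggagactTAGtcacgtgtcctg
Slc1a5: aaggaatctgtcatgTGAatatcaggaggg
Slc3a2: ttcccctttgtggccTGAtccttcctatgc
The related transporters Slc1a4 and Slc1a5 both ended in TGA, as did Slc3a2, while Slc7a5 and Slc7a6 both ended in TAG. Across all 10 members TGA closed 7 coding sequences, TAG 2 and TAA 1, where TGA closed 49.5% of 20996 mouse genes.

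Libraries held 17372510 to 24945286 counts and replicates correlated at 0.982 to 0.997 on the log2 scale, with the IgG libraries the most variable. All 8 B cell markers listed reached 1 CPM (a count scaled to the size of its library) in each group. None of the T cell, natural killer cell or erythroid markers did, and of 6 myeloid markers only Adgre1 did (summed marker level of 57.2 to 59.4 CPM with p-UPF1, 86.0 to 91.6 CPM with IgG and 128 to 139 CPM for the input). Whether this marker has a part in the results was not tested. CPM values below were scaled by TMM factors and are listed library by library, in the order of replicates C, B and A. A log2 fold change of 0 on this scale marks the typical RNA of a library, not an RNA that is recovered in the same absolute amount.

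For each mRNA it was asked whether the p-UPF1 antibody recovered it beyond nonspecific binding (against IgG) and beyond its abundance in the lysate (against input). The 10 mRNAs split widely. Slc1a4, Slc7a6, Slc7a5 and Slc7a1 were at least 2-fold higher in p-UPF1 than in IgG libraries, while Slc3a2 was 2.79-fold lower and the other 5 stayed within a log2 fold change of 0.36 of IgG. By edgeR's quasi-likelihood test (adjusted P under 0.05), 7 of the 10 differed from IgG, 5 higher and 2 lower, beside 82.6% of all tested genes (40.4% higher and 42.2% lower). Changes of 1 or more on the log2 scale were found for 4 members that were higher and 1 that was lower, where 22.2% and 21.9% of all genes passed these limits. Over input 8 differed, 6 higher and 2 lower, beside 83.4% of all genes (40.8% higher and 42.6% lower). Again 4 members were higher and 1 was lower by 1 or more on the log2 scale, beside 22.5% and 24.5% of all genes. A log2 change of 2, which the study's criterion asks over input, was reached by 2 members and by 6.31% of all genes. Slc1a4 and Slc7a6 met both limits of that criterion and are called bound here, as were 820 genes, or 6.25% of those tested. The median log2 fold change of the members was 0.04 over IgG and 0.51 over input, against -0.03 in both comparisons for all tested genes. Below, groups of libraries that do not overlap are described for single members. How many of all tested genes separate in this way was not counted, so such separation is not a trait of these members.

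**Figure D1:**
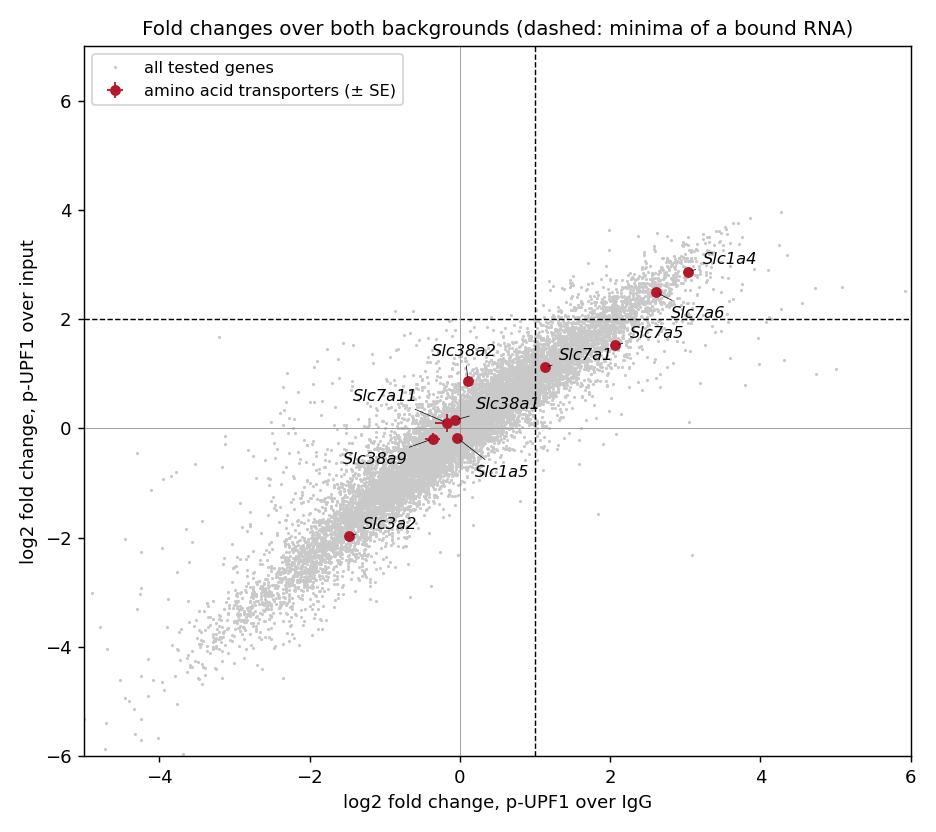
Log2 fold change of p-UPF1 over IgG (x axis) and over input (y axis) for all tested genes (grey) and the 10 amino acid transporters (red, ± SE), with dashed lines at the minima of 1 and 2 for a bound RNA; 14 tested genes lie outside the axes. Slc1a4 and Slc7a6 lie beyond both lines, Slc7a5 and Slc7a1 beyond the IgG line only, and Slc3a2 at -1.48 and -1.97; the axes share the p-UPF1 libraries, so the slope of the cloud is no result.

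Slc1a4 showed the highest recovery of the 10. It encodes ASCT1, an exchanger of alanine, serine and cysteine. Its level was 642, 670 and 640 CPM in the p-UPF1 libraries, 81.2, 81.5 and 73.9 CPM in the IgG libraries, and 82.8, 91.3 and 92.4 CPM in the input libraries. All 3 p-UPF1 values stood far above the other 6, which lay close together. The log2 fold change was 3.04 over IgG (SE 0.05, edgeR adjusted P = 1.71e-17), or 8.24-fold, which placed it at the 99.0th percentile of tested genes. Over input it was 2.87 (SE 0.05, edgeR adjusted P = 1.96e-17).

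Slc7a6 was the other bound mRNA. The p-UPF1 libraries gave 446, 446 and 439 CPM, the IgG libraries 71.9, 72.9 and 73.8 CPM, and the input libraries 76.5, 82.1 and 77.9 CPM. No p-UPF1 value came near those of the other groups. It rose by 2.61 on the log2 scale over IgG (SE 0.04, edgeR adjusted P = 9.26e-18), a 6.09-fold difference. Over input it reached 2.49 (SE 0.04, edgeR adjusted P = 7.97e-18).

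Slc7a5 had the highest level per length of these mRNAs in the p-UPF1 libraries. It measured 1509, 1595 and 1570 CPM there, against 374, 384 and 353 CPM with IgG and 545, 550 and 537 CPM in input. The 3 groups did not overlap, and IgG was the lowest. Slc7a5 was 4.21-fold higher over IgG (log2 fold change 2.07, SE 0.04, edgeR adjusted P = 7.01e-17). Over input the log2 fold change was 1.52 (SE 0.04, edgeR adjusted P = 1.65e-15), under the minimum of 2, so Slc7a5 was not called bound.

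Slc7a1, which encodes the cationic amino acid transporter CAT1 for arginine and lysine, lay nearer the limit. Its level was 989, 987 and 992 CPM with p-UPF1, 476, 469 and 414 CPM with IgG, and 458, 462 and 447 CPM in input. All p-UPF1 values were above the other 6, and IgG overlapped input. It changed by 1.13 on the log2 scale over IgG (SE 0.05, edgeR adjusted P = 7.56e-13) and 1.12 over input (SE 0.05, edgeR adjusted P = 7.03e-13). With upper-quartile factors or library size alone in place of TMM, the change over IgG was 0.99 and 0.97, just under the minimum of 1.

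**Figure D2:**
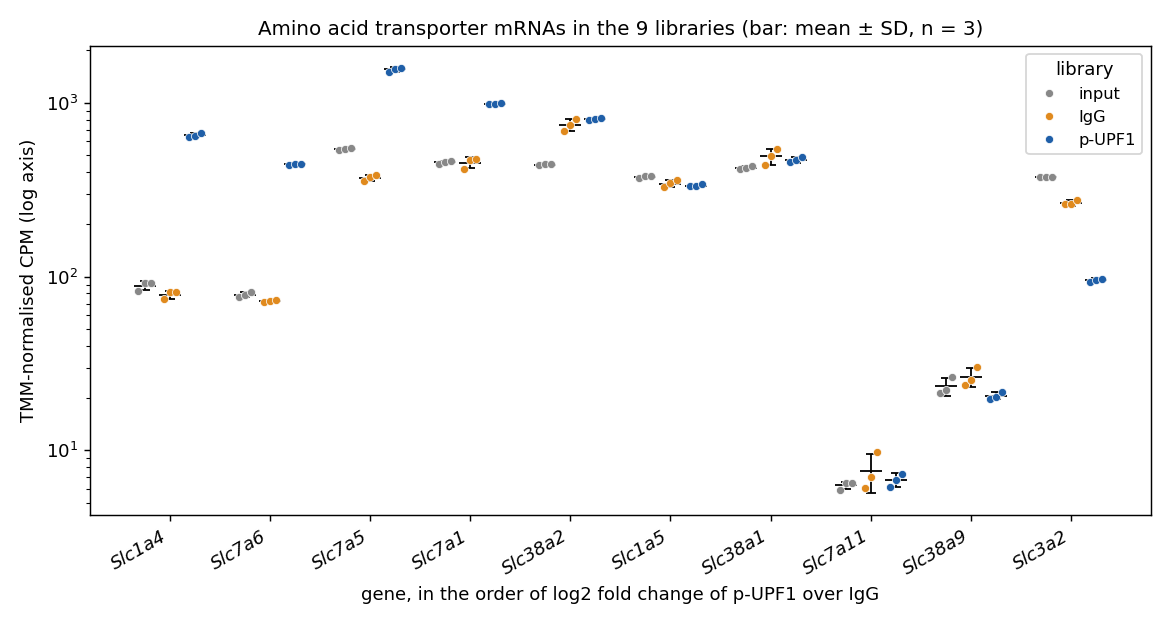
TMM-normalised CPM (y axis, log scale) of the 10 mRNAs (x axis, ordered by log2 fold change of p-UPF1 over IgG) in each input, IgG and p-UPF1 library (points, in rising order within a group), with the mean ± SD of 3 libraries as bars. The p-UPF1 points lie above the other groups for Slc1a4, Slc7a6, Slc7a5 and Slc7a1 and below both for Slc3a2. The share of all tested genes that separate in this way was not counted, and by edgeR's quasi-likelihood test 82.6% of them differed from IgG and 83.4% from input.

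Slc3a2 was the only member past the limits in the other direction. The p-UPF1 libraries held 96.2, 97.4 and 92.9 CPM, the IgG libraries 261, 260 and 278 CPM, and the input libraries 373, 374 and 377 CPM. The 3 groups were fully apart, with p-UPF1 lowest and input highest. On the log2 scale it fell by 1.48 against IgG (SE 0.04, edgeR adjusted P = 4.51e-15), and against input it fell by 1.97 (SE 0.04, edgeR adjusted P = 1.13e-16). Among all tested genes Slc3a2 stood at percentile 12.8 over IgG and percentile 9.93 over input. The mRNA of the shared heavy chain was less represented with p-UPF1 while those of the light chains Slc7a5 and Slc7a6 were more represented. The light chains did not move as a group, since Slc7a11 was at -0.17 over IgG and did not pass the test. Of the light chains outside the members, named after their values were seen, Slc7a7 was at 0.41 (edgeR adjusted P = 0.0225) and Slc7a10 at -1.18 (edgeR adjusted P = 0.00138) over IgG, both at under 10 CPM on average, while Slc7a8 was too low to be tested.

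This divergence was also read within each library, as the ratio of the counts of a pair of genes, which no scaling between libraries can change. The genes differ in length, so only the change of a ratio between groups is interpreted. For each count of Slc3a2 there were 16.3 ± 0.60 counts of Slc7a5 with p-UPF1, against 1.39 ± 0.11 with IgG and 1.45 ± 0.02 for the input (SD, n = 3). Slc7a6 had 4.65 ± 0.07 counts with p-UPF1, against 0.27 ± 0.01 with IgG and 0.21 ± 0.01 for the input. Both ratios were higher in every p-UPF1 library than in any of the other 6, by 3.55 and 4.09 on the log2 scale over IgG. These changes restate the fold changes of the single genes given above, and ratios of gene pairs outside the members were not computed.

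The related pair Slc1a4 and Slc1a5 split in the same way. Slc1a5 encodes ASCT2, which takes up glutamine and other neutral amino acids. For each count of Slc1a5 there were 1.95 ± 0.07 counts of Slc1a4 with p-UPF1, 0.23 ± 0.02 with IgG and 0.24 ± 0.01 for the input, a log2 change of 3.08 over IgG. The ratio of Slc38a2 to Slc38a1 was 1.72 ± 0.08 with p-UPF1, 1.52 ± 0.04 with IgG and 1.05 ± 0.03 for the input. That of Slc7a11 to Slc3a2 was 0.0708 ± 0.005 with p-UPF1, 0.0288 ± 0.008 with IgG and 0.0168 ± 0.0007 for the input, although Slc7a11 itself did not pass the test in either comparison. For each of the 5 pairs a two-sided exact permutation test of p-UPF1 against IgG, and against input, gave P = 0.1, the smallest that 3 against 3 libraries can give.

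**Figure D3:**
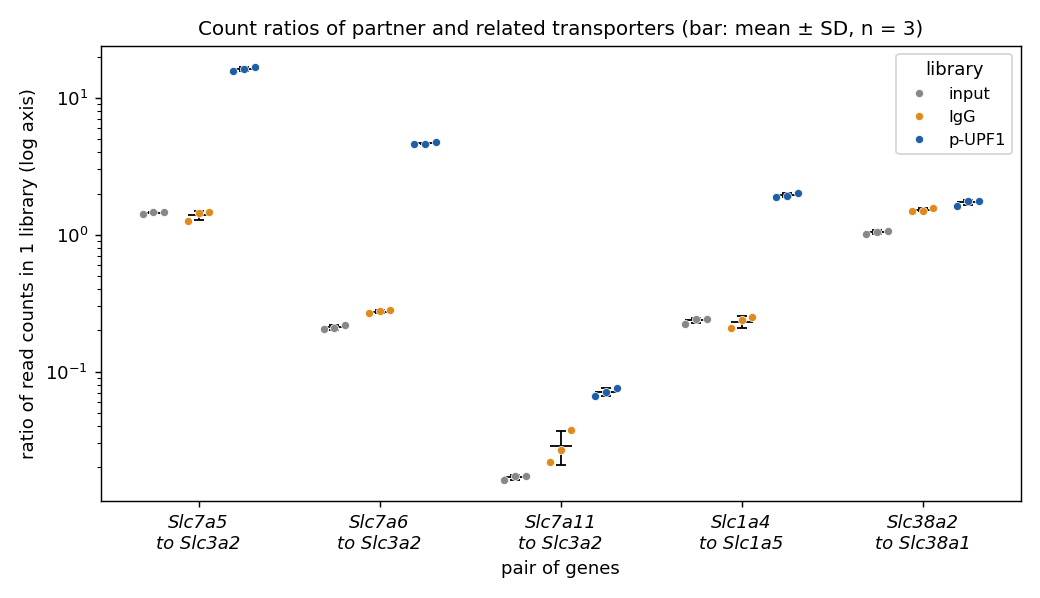
Ratio of read counts of 2 genes within a library (y axis, log scale) for 5 pairs (x axis) in input, IgG and p-UPF1 libraries (points, in rising order within a group), with the mean ± SD of 3 libraries as bars. The ratios of Slc7a5 to Slc3a2, Slc7a6 to Slc3a2 and Slc1a4 to Slc1a5 rise to 16.3, 4.65 and 1.95 in p-UPF1 libraries, while Slc38a2 to Slc38a1 moves mainly between input and both precipitates.

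The glutamine transporter Slc1a5 was measured in p-UPF1 libraries at 339, 331 and 333 CPM, in IgG libraries at 326, 344 and 358 CPM, and in input libraries at 372, 378 and 379 CPM. The precipitates overlapped, and input was higher than both. Its log2 fold change over IgG was -0.04 (95% interval -0.12 to 0.05, edgeR adjusted P = 0.411), so a change of the size seen for Slc1a4 lay far outside the interval. It passed the test as lower with upper-quartile factors (-0.17), library size alone (-0.20) or TMM against an input library (-0.12), and turned to 0.01 without a filter on low counts. Over input it was -0.17 (SE 0.04, edgeR adjusted P = 0.000868), a call lost at -0.04 both with TMM against an IgG library and without a filter on low counts.

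Slc38a1 and Slc38a2 encode the sodium-coupled neutral amino acid transporters SNAT1 and SNAT2. Slc38a1 gave 488, 466 and 454 CPM with p-UPF1, 543, 496 and 436 CPM with IgG, and 420, 432 and 415 CPM in input. The IgG values spanned those of p-UPF1, and the log2 fold change was -0.07 (95% interval -0.19 to 0.06, edgeR adjusted P = 0.312). It turned to 0.01 without IgG replicate C, and passed the test as lower without IgG replicate A (-0.15) and with upper-quartile factors, library size alone or TMM against an input library (-0.23 to -0.15). Over input it was 0.15 (SE 0.06, edgeR adjusted P = 0.028), a call that was lost without p-UPF1 replicate B or C, or without input replicate A or C.

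Slc38a2 was high in both precipitates. It measured 796, 817 and 806 CPM with p-UPF1, 812, 744 and 686 CPM with IgG, and 442, 438 and 444 CPM in input. All 6 precipitate values exceeded those of input, while p-UPF1 and IgG overlapped. The level changed by 0.87 on the log2 scale over input (SE 0.05, edgeR adjusted P = 4.22e-11) but 0.11 over IgG (SE 0.05, edgeR adjusted P = 0.0458), and the last changed sign to -0.05 with library size alone. The call over IgG was also lost without p-UPF1 replicate B or C, IgG replicate A or B, or input replicate A or C, at 0.05 to 0.12.

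The scarcest mRNAs were Slc38a9, whose product acts at the lysosome as an arginine sensor upstream of mTORC1, and Slc7a11. Slc38a9 had 440 to 514 counts in p-UPF1 libraries, with 20.4, 19.9 and 21.7 CPM there, against 23.8, 25.5 and 30.3 CPM with IgG and 21.5, 22.3 and 26.6 CPM for the input. The p-UPF1 values lay below every IgG value and overlapped input. The log2 fold change was -0.36 over IgG (SE 0.10, edgeR adjusted P = 0.003) and -0.19 over input (95% interval -0.40 to 0.02, edgeR adjusted P = 0.0863), where it passed the test without IgG replicate A (-0.20) or input replicate C (-0.26). Gm52034, a gene on the opposite strand, overlaps 145 exon bases of Slc38a9 and has no row in the table. If strand was not used in counting, its reads and those of Slc38a9 cannot be told apart.

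Slc7a11 had only 114 to 191 counts a library. Its level was 6.80, 7.36 and 6.15 CPM with p-UPF1, 9.80, 6.99 and 6.06 CPM with IgG, and 5.96, 6.46 and 6.49 CPM in input. The groups overlapped, with 1 IgG library well above the rest. The log2 fold change over IgG was -0.17 (95% interval -0.51 to 0.16, edgeR adjusted P = 0.317), which turned to 0.05 without that library (IgG replicate C) and passed the test at -0.31 without IgG replicate A (edgeR adjusted P = 0.0475). At this depth no difference over input was detectable either (0.10, 95% interval -0.24 to 0.44, edgeR adjusted P = 0.567).

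The comparison of IgG with input measures what beads and a nonspecific antibody recover. The changes of the members were small, from -0.56 for Slc7a5 to 0.76 for Slc38a2 on the log2 scale. Of the 10, 7 differed by edgeR's quasi-likelihood test (adjusted P under 0.05), 2 higher and 5 lower in IgG, beside 52.9% of all tested genes (18.2% higher and 34.7% lower). The genes at the ends held under each scaling tried. Slc38a2 was 1.69-fold higher (edgeR adjusted P = 5.27e-09), while Slc7a5 was 1.47-fold lower (edgeR adjusted P = 1.53e-08) and Slc3a2 1.41-fold lower (edgeR adjusted P = 4.92e-08). Slc38a1 was also higher, at 0.22 (edgeR adjusted P = 0.00613), a call lost without IgG replicate C. The lower levels of Slc1a4, Slc1a5 and Slc7a6, at -0.17, -0.14 and -0.11, no longer passed with upper-quartile factors or library size alone, and that of Slc7a6 came to 0 with library size alone. Without input replicate A the call of Slc1a4 was lost, as was that of Slc7a6 without IgG replicate C or input replicate B. Slc7a1 (-0.01), Slc7a11 (0.27) and Slc38a9 (0.17) did not pass the test, although Slc7a11 passed it without IgG replicate A (0.40) and Slc38a9 without input replicate A (0.27). Library size alone raised the median of all genes in this comparison by 0.12 and moved the share of higher genes among those called from 34.4% to 52.6%.

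Levels of different genes can be compared only per length, here as CPM per kilobase of exon. In input Slc7a5 was highest at 155 ± 1.82, followed by Slc1a5 at 136 ± 1.47, Slc3a2 at 127 ± 0.64, Slc38a2 at 94.8 ± 0.63, Slc7a1 at 62.9 ± 1.01, Slc38a1 at 50.4 ± 1.07, Slc1a4 at 22.6 ± 1.34, Slc7a6 at 17.1 ± 0.63, Slc38a9 at 2.63 ± 0.31 and Slc7a11 at 0.68 ± 0.03 (SD, n = 3). Each step in this order was larger than the SDs of its neighbours. Slc7a5, Slc1a5 and Slc3a2 stood above 96.0% of tested genes per length, while Slc7a11 stood at the 13.6th percentile. In p-UPF1 libraries Slc7a5 led at 443 ± 12.6, Slc1a4 rose from the 7th to the 3rd place at 166 ± 4.23, and Slc3a2 went from the 3rd to the 8th at 32.3 ± 0.78. In IgG libraries Slc38a2 led at 160 ± 13.5, and Slc7a1 (62.6 ± 4.69) and Slc38a1 (58.6 ± 6.38) could not be ordered within their spread. Of all counts of a library, the 10 mRNAs together made up 0.512% ± 0.006 with p-UPF1, 0.304% ± 0.01 with IgG and 0.277% ± 0.0004 for the input. The methods describe input and precipitates as fractions of lysate from stimulated cells. Differences between these groups are thus of recovery, not of expression in the cells.

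A feature that the choice of members did not use is the length of the 3' UTR, taken from RefSeq transcripts. Across 11896 tested genes with such a transcript, Spearman's rho between this length and the log2 fold change over IgG was 0.36, given as a description across genes, which are not independent replicates. It was 0.31 for the GC percentage of the 3' UTR and 0.29 for the length of the whole transcript, and these features were not separated. The median log2 fold change was -0.93 for 3' UTRs of up to 250 nucleotides and was 0.49 for those over 2000 and up to 4000 nucleotides and 0.10 for longer ones. The 3 members with the highest recovery had 3' UTRs of similar length, with 2086 nucleotides in Slc1a4, 2076 in Slc7a6 and 1894 in Slc7a5. Slc38a2, with 2735 nucleotides and a log2 fold change of 0.11, lay below the median of its class.

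The longest 3' UTRs belonged to Slc7a11 (7366 nucleotides), Slc38a9 (7088), Slc38a1 (5293) and Slc7a1 (5030), of which only Slc7a1 was higher in p-UPF1 than in IgG. The shortest were those of Slc1a5 (535) and Slc3a2 (841), in the class over 500 and up to 1000 nucleotides, with a median of 0.05 and quartiles of -0.66 and 0.87. Slc1a5 was near that median, and Slc3a2 was below the lower quartile. The GENCODE annotation ends the main Slc3a2 transcript after only 106 nucleotides of 3' UTR, so this length is uncertain. At 106 nucleotides Slc3a2 would fall in the class of up to 250 nucleotides, inside its quartiles of -1.77 and -0.04. No member had a splice junction more than 50 nucleotides beyond its stop codon in the transcript used. Annotated transcripts of the nonsense-mediated decay class were listed for 2 members, with 1 for the bound Slc7a6 and 1 for Slc38a9. Gene counts cannot tell which transcript was recovered.

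**Figure D4:**
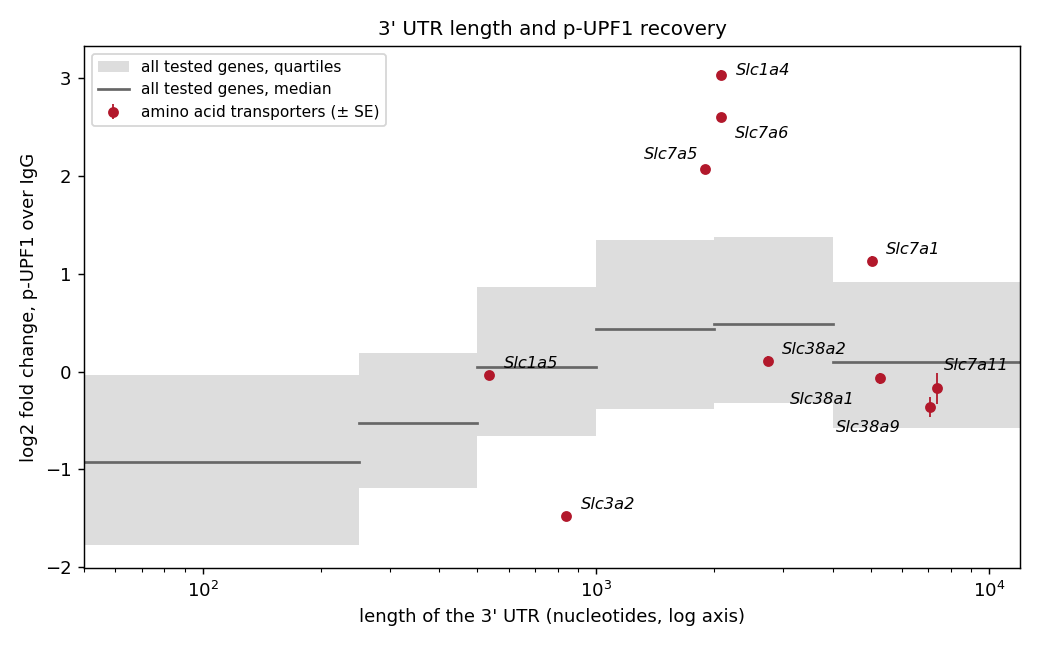
Log2 fold change of p-UPF1 over IgG (y axis) against the length of the 3' UTR in nucleotides (x axis, log scale) for the 10 transporters (red points, ± SE), with the median and quartiles of all tested genes in each of 6 length classes (grey; the outer classes are drawn to the axis limits). Slc1a4, Slc7a6, Slc7a5 and Slc7a1 lie above the upper quartile of their classes, and Slc3a2 lies below the lower quartile of its class at its RefSeq length of 841 nucleotides, but would lie within the quartiles of the shortest class at its GENCODE length of 106.

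Other amino acid transporters were counted from lists set up together with the members. Of 36 further transporters of the plasma membrane 13 were expressed enough to be tested. By edgeR's quasi-likelihood test 7 of them were higher and 3 lower in p-UPF1 than in IgG, beside 40.4% higher and 42.2% lower among all tested genes. Their median log2 fold change was 0.26 against -0.03 for all genes, and none was bound. Over input 5 were higher and 5 lower (40.8% and 42.6% of all tested genes), with a median of -0.06. Among those with at least 10 CPM on average, Slc38a6 was highest at 1.63 over IgG (18.1 CPM with p-UPF1 and 5.84 CPM with IgG, edgeR adjusted P = 6.14e-10). Slc7a3, which encodes another cationic amino acid transporter, was lowest at -1.45 (34.1 CPM with p-UPF1 and 93.3 CPM with IgG, edgeR adjusted P = 7.64e-13), while its relative Slc7a1 was at 1.13.

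Of 12 transporters of lysosomes and vesicles 9 were tested, 7 higher and 1 lower in p-UPF1 than in IgG (40.4% and 42.2% of all tested genes), with a median of 0.75. Mfsd12, which carries cysteine into melanosomes and lysosomes, was the 1 bound member of this list, at 2.47 over IgG and 2.60 over input (edgeR adjusted P = 8.1e-14 and 3.54e-14). Slc36a1, an exporter of small amino acids from the lysosome, was lowest at -0.59 (edgeR adjusted P = 3.81e-05). All 30 genes listed for amino acid sensing at the lysosome upstream of mTORC1, the pathway to which Slc38a9 belongs, were tested. Here 11 were higher and 17 lower than in IgG, against the same 40.4% and 42.2% of all tested genes, with a median of -0.24. The leucine sensor family member Sesn1 was bound (2.24 over IgG and 2.60 over input, edgeR adjusted P = 9.58e-16 and 1.57e-16), and Lamtor2, a subunit of the Ragulator complex, was lowest at -2.33 (edgeR adjusted P = 5.14e-13).

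The heavy chain Slc3a2 was last compared by pattern with 8983 other genes of at least 10 CPM on average, using the Euclidean distance between centred log2 CPM profiles over 9 libraries. Nearest to Slc3a2 were Nsmce1, Suclg1 and Cd81, at distances of 0.115 to 0.129. Cd81, a tetraspanin of the B cell surface, had 104 CPM with p-UPF1, 288 CPM with IgG and 403 CPM for the input.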

How the data were processed

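The authors deposited unscaled counts of reads for every gene and library. Per the labels, polyA RNA was sequenced and cutadapt, HISAT2 and featureCounts were used on mm10, with versions and the strand setting of these libraries not given in the sources used here. Columns carry letters while labels carry replicate numbers, so columns were assigned to groups only. Of 27179 gene identifiers, 25275 matched a RefSeq symbol, among them all 10 members. Genes passing filterByExpr (13129) were scaled by TMM and tested with edgeR 4.0.16 (quasi-likelihood test, 3 groups, 6 residual degrees of freedom) in R 4.3.3, with Benjamini-Hochberg adjustment over all tested genes. Standard errors came from the test statistic. A bound RNA was higher by 1 or more (log2) than IgG and by 2 or more than input, both with adjusted P below 0.05. Exon lengths and 3' UTRs came from curated RefSeq transcripts. Genes outside the members were named where bound, where highest or lowest over IgG in their list at 10 CPM or more, or as the 3 nearest in pattern to Slc3a2 (those of Slc7a11 are not reported here). Members and lists were chosen with earlier results of these data known. Replicates all differed by more than sampling noise, and counts without molecular identifiers are not independent molecules. Alternatives were other scalings, filters and tools (DESeq2 1.42.0, limma 3.58.1), a prior count of 2, 2 groups at a time, a test against the fold minimum, a stricter threshold, leaving out each library and, added after seeing the data, the column letter as a block.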

Additional observations from a re-analysis of the deposited data

How the results depend on the processing

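The calls of Slc1a4 and Slc7a6 as bound and of Slc3a2 as lower held in every alternative run, and members higher than IgG by 1 or more (log2) numbered 3 or 4, with Slc7a1 lost under upper-quartile factors and library size alone. Of 30 log2 fold changes (10 members, 3 comparisons), 16 kept direction and side of the threshold in all 21 alternatives. Members differing between IgG and input numbered 7, but 4 with upper-quartile factors and 4 when only these 2 groups were fitted, and 5 to 8 with 1 library left out. Signs turned only for changes near 0. Over IgG they turned for Slc7a11 (0.05) and Slc38a1 (0.01) without IgG replicate C, for Slc1a5 without a filter (0.01), and for Slc38a2 with upper-quartile factors (-0.03) and library size alone (-0.05). For IgG over input, Slc7a6 came to 0 with library size alone, and Slc7a1 turned from -0.01 to 0.02 (DESeq2, or its size factors), 0.06 (upper quartile), 0.11 (library size, where it passed the test), 0.10 and 0.09 (TMM against an input or an IgG library), 0.08 (no filter), 0 (1 CPM in 3 libraries), 0.10 (2 groups) and 0.04 (without IgG replicate A). Over IgG, Slc1a5 (-0.20 to -0.12) and Slc38a1 (-0.23 to -0.15) passed the test under 3 scalings each, and Slc38a1 (-0.15) and Slc7a11 (-0.31) without IgG replicate A, while Slc38a2 over IgG missed it in 10 alternatives, Slc38a1 over input in 6 and Slc1a5 over input in 2. Slc38a9 over input passed in 6. For IgG over input the calls of Slc7a6, Slc1a4, Slc1a5 and Slc38a1 were lost in 10, 7, 6 and 1 alternatives, and Slc38a9 and Slc7a11 passed in 5 and 2. The cause was not tested. Library size alone moved the median of all genes over IgG by -0.16, and TMM against an IgG library that over input by 0.13. The count columns of all groups share the letters A, B and C, which match no replicate number of the labels. Deviations from the group means correlated at -0.0051 to 0.0542 across tested genes for the 9 pairs of columns with one letter, none over 0.1, and the highest correlation was with the same letter in 13 of 18 cases, so the letters were not taken as pairs. With the letter as a replicate block, chosen after seeing the data, 4 members were higher than IgG by 1 or more (log2), 2 were bound, 1 was lower and 7 differed between IgG and input. The genes called went from 10845 to 10875 over IgG, from 10952 to 11002 over input and from 6950 to 7094 for IgG over input. Among the members it changed only the call of Slc38a9 over input, which passed at -0.18 (edgeR adjusted P = 0.0329). The depth of Slc7a11, at most 191 counts a library, limits what could be detected for it.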

Other observations

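Genes listed for amino acid synthesis and for glutathione, including genes that use it, were largely lower with p-UPF1. Of 22 listed genes 20 were tested, and 17 were lower and 2 higher than in IgG by edgeR's quasi-likelihood test, beside 42.2% lower and 40.4% higher among all tested genes. The median log2 fold change was -1.06 against -0.03 for all tested genes, and none was bound. Gpx4, which reduces lipid peroxides with glutathione, was lowest among genes of at least 10 CPM on average, with 6.68 ± 0.39 CPM under p-UPF1, 32.3 ± 2.17 CPM under IgG and 52.0 ± 1.31 CPM for the input (SD, n = 3). Against IgG its change on the log2 scale was -2.27 (SE 0.08, edgeR adjusted P = 8.01e-14). Aldh18a1, which starts proline synthesis from glutamate, was the highest of the list at 0.87 over IgG (SE 0.04, edgeR adjusted P = 1.19e-12).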
